A study of Homo sapiens with 3 samples.

Results

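In a ChIRP-seq peak list for KCNQ1OT1, a long noncoding RNA, 668 were intergenic peaks close to protein-coding genes. A peak was placed here when its midpoint lay in no protein-coding or lncRNA gene of the RefSeq table for GRCh38, more than 5 kb and at most 100 kb from the nearest protein-coding gene, on chromosomes 1 to 22, and outside every stretch of 2 Mb or more that holds no gene of any kind. They were 668 of 4454 autosomal peaks and of 4889 peaks in the whole list. The rule used positions alone, so the height, width and significance of these peaks played no part in the choice. The study used HEK293T, an established human embryonic kidney line, in 3 libraries: a pulldown with the probe set labelled odd, a pulldown with the set labelled even, and an input without probes, with 1 library in each group. No treatment is named for any of them. The cells were crosslinked for 30 min in 3% formaldehyde and sonicated mostly below 500 bp. The values belong to 1 merged peak list in which every name carries the even label, so there is no replicate against which a difference could be tested. Intervals given here are 95% intervals. Those of shares, counts and densities are for counting error alone. Those of medians reflect the spread between peaks, taken as if each were independent. None measures variation between libraries, and peaks that lie side by side are not independent counts.

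KCNQ1OT1 is transcribed from the imprinted region at 11p15.5, antisense to the potassium channel gene KCNQ1, and is known for silencing neighbouring genes on the paternal chromosome together with histone methyltransferases. In ChIRP, biotinylated oligonucleotides complementary to an RNA draw that RNA and its chromatin out of fixed cells, and the DNA that comes along is sequenced. Intergenic sequence within reach of a gene is where many enhancers lie, along with repeats and pseudogenes; a nearest gene is a landmark for position and no evidence of regulation.

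The genome sequence under most of these peaks was not analysed here, but RefSeq promoter windows, which run from 250 bases before to 50 bases after the start of a gene, overlapped 2 of the 668. They are shown because they are the stretches of recovered DNA whose letters could be read. The peak at chr2:112824341-112824793, 5.18 kb from IL1B, the gene of the inflammatory cytokine interleukin-1 beta, holds the whole window of the lncRNA gene LOC124907871 (chr2:112824430-112824729, GRCh38.p14, minus strand), and its summit falls on base 175 of the window. Its fold was 17.9. The second, at chr9:38498892-38499469, with a fold of 39.9 and 67.0 kb from ANKRD18A, overlaps the first 69 bases of the window of LOC105376042 (chr9:38499401-38499469, plus strand), and its summit lies outside them. Capitals in the first sequence mark the 21 bases centred on the summit.
LOC124907871: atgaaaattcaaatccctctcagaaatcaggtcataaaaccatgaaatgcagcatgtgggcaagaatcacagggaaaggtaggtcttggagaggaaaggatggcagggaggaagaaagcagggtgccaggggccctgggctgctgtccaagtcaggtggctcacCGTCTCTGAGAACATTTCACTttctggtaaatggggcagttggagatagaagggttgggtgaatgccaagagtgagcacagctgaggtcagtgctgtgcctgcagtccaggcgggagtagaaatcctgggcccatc
LOC105376042: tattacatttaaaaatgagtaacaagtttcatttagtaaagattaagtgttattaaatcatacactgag
The stretch near IL1B had 52.3% G and C, against a median of 58.7% (quartiles 47.0 and 68.0%) over 35116 promoter windows, whereas the stretch near ANKRD18A had 21.7%. Purines (A or G) made up 61.3% of the stretch near IL1B. Its longest unbroken run of purines was 14 bases, and 25.9% of all windows held a run of purines or of pyrimidines at least as long, so such a run is common among promoters. No peak of the 668 overlapped any of 1562 miRNA hairpins. The 668 peaks cover 656 kb of an autosomal span of 2873 Mb, and the overlap was not counted over all autosomal peaks.

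The fold enrichment of a peak, which is the pulldown divided by its background at the summit, taken as the authors' caller wrote it, had a median of 9.33 over the 668 peaks (8.39 to 9.95), with quartiles of 6.12 and 25.1 and a range from 1.98 to 132. Over the other 2356 autosomal peaks outside gene-free stretches the median was 12.6. The peaks near genes thus had a median below that of peaks inside protein-coding genes (13.0, interval 11.7 to 14.4, n = 1399) and below that of peaks inside lncRNA genes alone (15.2, interval 12.9 to 19.0, n = 317). Intergenic peaks within 5 kb of a gene had a median of 8.48, and its interval, 7.05 to 10.1 (n = 168), overlaps that of the peaks described here. Intergenic peaks beyond 100 kb had a higher median, 12.2 (10.3 to 13.3, n = 472). Lower medians were found in gene-free stretches (5.73, interval 5.51 to 5.94, n = 1430) and over all autosomal peaks (8.39, interval 8.16 to 8.64). The latter interval overlaps that of the 668 peaks, which are themselves part of all autosomal peaks. A fold of 20 or more was found in 199 of the 668, or 29.8% (26.4 to 33.4). This share lay between the 36.0% of autosomal peaks outside gene-free stretches and the 26.1% of all autosomal peaks. Inside protein-coding genes it was 39.7%, inside lncRNA genes 41.3%, beyond 100 kb from a gene 34.5%, within 5 kb 25% (42 of 168) and in gene-free stretches 4.97%. No test of these differences was made, since a single list has no spread between replicates.

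High and low peaks differed in width. Median width was 678 bp (637 to 765): 285 peaks measured 450 to 800 bp, 302 were wider and 81 were narrower. Of the 199 peaks with a fold of 20 or more, 179 (89.9%, interval 85.0 to 93.4) were 450 to 800 bp wide, and the quartiles of all 199 were 534 and 617 bp. They made up 26.8% of the peaks near genes; the same form made up 32.0% of autosomal peaks outside gene-free stretches and 21.8% of all autosomal peaks. Peaks of lower fold were spread out instead, with 79 under 450 bp, 106 between the limits and 284 over 800 bp, and a median of 962 bp. The limits of 450 and 800 bp were set after the values had been seen.

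**Figure D1:**
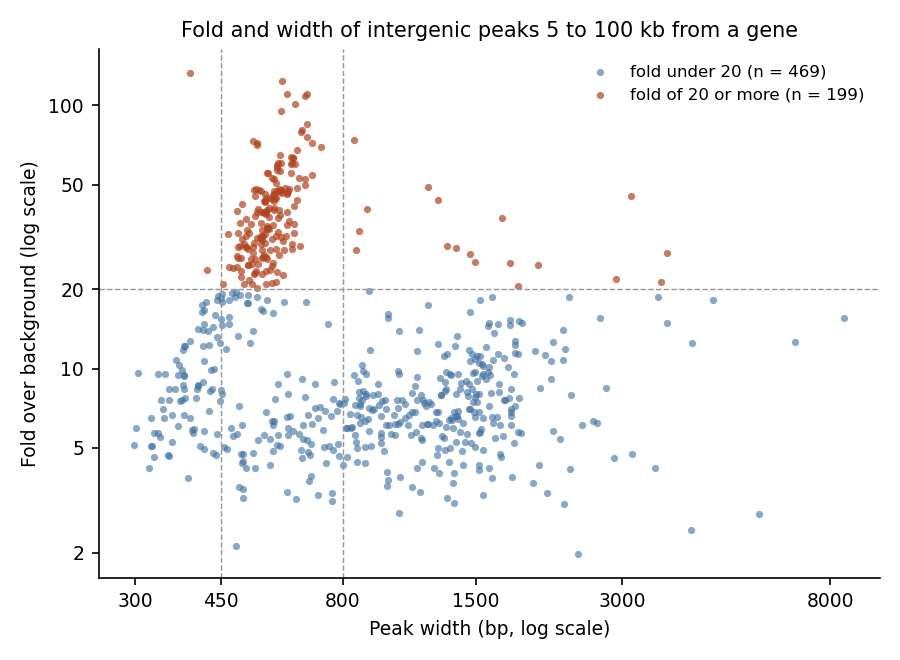
Fold over background (log scale) against peak width in bp (log scale) for each of the 668 intergenic peaks, with dashed lines at widths of 450 and 800 bp and at a fold of 20. Peaks with a fold of 20 or more (199, red) form a narrow column of which 179 stand between the width limits, and peaks of lower fold (469, blue) spread along the bottom to 8550 bp.

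Among peaks of 800 bp or less, width rose with fold from a fold of 10 on. The median width was 498 bp at a fold under 10 (n = 135), 451.5 bp at a fold of 10 to 20 (n = 50), 547 bp at 20 to 40 (n = 105), 587 bp at 40 to 80 (n = 67) and 639 bp at 80 or more (n = 9). Wide peaks showed high folds far less often: 284 of the 302 over 800 bp stayed under 20, and their median fold was 7.36. Peaks in gene-free stretches had another pattern, since their 71 peaks with a fold of 20 or more had a median width of 2396 bp and 2 of them fell between 450 and 800 bp. Outside those stretches the narrow form was also frequent among the rest and made up 88.7% of the 891 other peaks with such a fold (interval 86.4 to 90.6).

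The number of fragments behind each fold could be worked out. By the definitions that MACS2 uses, the fold is the pileup at the summit plus 1 over the background plus 1, and the p-value is the Poisson tail of that pileup; a whole number of fragments met both deposited values in all 668 peaks, with a largest error of 0.000244 in −log10 p, while the next best whole number missed by at least 0.0149. Pileups ran from 14 to 480 fragments with a median of 43.5, and the background had a median of 2.37 expected fragments. Peaks with a fold of 20 or more had a median pileup of 117 over a background of 1.85, and the others had 31 over 3.05. On the log2 scale the mean fold of the high peaks exceeded that of the others by 2.35, of which 1.71 lay in the pileup term and 0.64 in a lower background term.

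The background itself rested on few reads in part of the peaks. In 125 of the 668 peaks it stood at a floor of 1.63 fragments common to the whole genome. In every other peak with a background under 8, it was a whole multiple, within 2e-04, of the value that 1 background read has in a window of about 287 bp (172 peaks), of 1 kb (174) or of 10 kb (117). A value that fits the 1 kb window also fits the 10 kb window with 10 times the reads, and it was placed at 1 kb. The split between these windows is therefore partly set by that order. A background read in the smallest window was worth 0.590 fragments, and those 172 backgrounds amount to 3 to 13 such reads, with a median of 6. So few reads limit the precision of the folds of those 172 peaks. Backgrounds set by the 10 kb window counted more reads, such as 103 near PTPRU and 397 near PRB2. In 80 peaks the background was 8 or more and its window was not assigned. The library that supplied the background is unstated here.

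**Figure D2:**
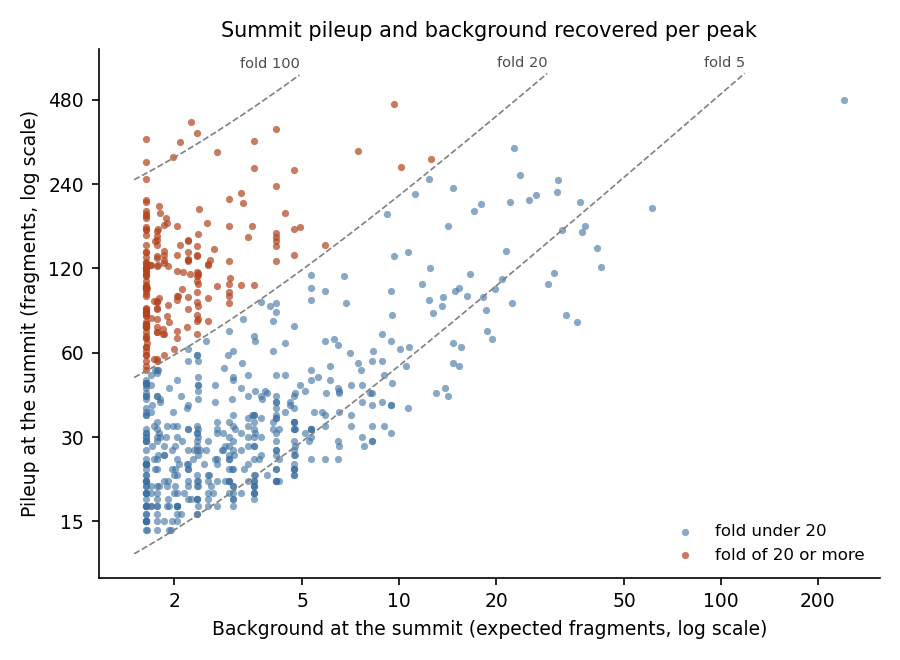
Pileup at the summit in fragments (log scale) against the background in expected fragments (log scale) for each of the 668 peaks, with dashed lines of equal fold at 5, 20 and 100. Most peaks with a fold of 20 or more (red) stand at backgrounds near the floor of 1.63, and the column of points at the left edge holds the 125 peaks at that floor.

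The highest fold, 132, belonged to a peak of 390 bp at chr14:19718740-19719129, 5.05 kb from the olfactory receptor gene OR11H2, with a pileup of 347 fragments (311 to 386) over the genome-wide floor. A peak 52.4 kb from CACHD1, which encodes a protein related to calcium channel subunits, followed at chr1:64417460-64418059 with a fold of 123. Its −log10 p, 731, was the highest of the 668, and its pileup was 400 fragments (362 to 441). Over all autosomal peaks the highest fold was 386 and the highest −log10 p was 2846. A peak at chr1:47515151-47515766 stood 74.8 kb past FOXD2, a forkhead transcription factor gene, with a fold of 111. Another, at chr2:32055532-32056206, lay 7.69 kb before the start of SPAST, the gene of the microtubule-severing enzyme spastin, with a fold of 110. The zinc finger gene ZNF573 had a peak of fold 109 at chr19:37730776-37731445, 7.19 kb past its end.

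These leading peaks were alike in shape. The 10 with the highest fold were 390 to 675 bp wide, had 207 to 400 fragments at the summit over backgrounds of 1.63 to 2.71, and none had another listed peak within 10 kb. The remaining ones stood near LOC100996701 (101), GLUL (95.5), the glutamine synthetase gene, the kinase gene MAP3K21 (84.7), NYNRIN (80.3) and TTLL7 (79.2), an enzyme that adds glutamate chains to tubulin. On chromosome 1 lay 5 of the 10, and that chromosome held 75 of the 668 peaks and 489 of the 4454 autosomal peaks. Ranked by −log10 p instead, 7 of the 10 were shared, and the others were peaks near YTHDF1, a reader of methylated adenosine in RNA (fold 43.8, −log10 p 588), SOCS5, a suppressor of cytokine signalling (73.7 and 581), and DESI2 (75.8 and 538). The peak near YTHDF1 had more fragments than any of the 10 highest by fold, 465, over a background of 9.65.

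Distance to the gene was described against the sequence that could have held such a peak. Bases that meet the same positional rule add up to 499 Mb, 17.4% of the autosomal span, and held 1.34 peaks per Mb (1.24 to 1.44). Assembly gaps were not excluded from these lengths. The density was 2.16 per Mb (1.83 to 2.52) at 5 to 10 kb from a gene (156 peaks), 1.46 (1.26 to 1.67) at 10 to 25 kb (208), 1.18 (1.00 to 1.38) at 25 to 50 kb (160) and 0.969 (0.817 to 1.14) at 50 to 100 kb (144). The nearest class was thus 2.22 times as dense as the farthest (1.76 to 2.81). Median distance was 21.5 kb (19.9 to 24.5).

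The gradient was steeper among low peaks. Peaks with a fold under 20 numbered 1.63 per Mb (1.35 to 1.95) at 5 to 10 kb and 0.619 per Mb (0.499 to 0.759) at 50 to 100 kb, a ratio of 2.63 (1.99 to 3.50). For peaks with a fold of 20 or more the densities were 0.525 (0.372 to 0.721) and 0.350 (0.261 to 0.459), a ratio of 1.501 whose interval, 0.961 to 2.32, includes 1. The intervals of both ratios overlap, and their difference was not tested. The share of high peaks was 24.4% (18.3 to 31.7) in the nearest class and 36.1% (28.7 to 44.2) in the farthest, and median folds were 8.15 and 11.6. By position in the genome, high peaks had 0.398 per Mb here, 0.459 in protein-coding genes, 0.369 in lncRNA genes, 0.409 within 5 kb of a gene and 0.303 beyond 100 kb, whereas low peaks had 0.939, 0.698, 0.525, 1.23 and 0.574 in the same order. Gene-free stretches held 0.421 high and 8.05 low peaks per Mb.

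Density also differed with the length of the gap between the flanking genes. In gaps under 50 kb there were 2.32 peaks per Mb (1.97 to 2.72), and in gaps of 250 to 500 kb 0.918 (0.724 to 1.15); gaps over 500 kb had 0.975. From the shortest to the longest of the 5 gap classes (under 50, 50 to 100, 100 to 250, 250 to 500 and over 500 kb), low peaks had 1.91, 1.26, 0.692, 0.608 and 0.629 per Mb. High peaks had 0.414, 0.421, 0.457, 0.310 and 0.346 per Mb in the same order. The highest of these values, in gaps of 100 to 250 kb, had an interval of 0.357 to 0.575. It overlaps the interval of the lowest, 0.202 to 0.454, in gaps of 250 to 500 kb. Median fold was 7.50 (6.82 to 8.23) in gaps under 50 kb and 12.6 (9.44 to 19.1) in gaps over 500 kb. Distance and gap length are tied to each other, because a short gap holds no base far from a gene, so they do not give separate results.

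**Figure D3:**
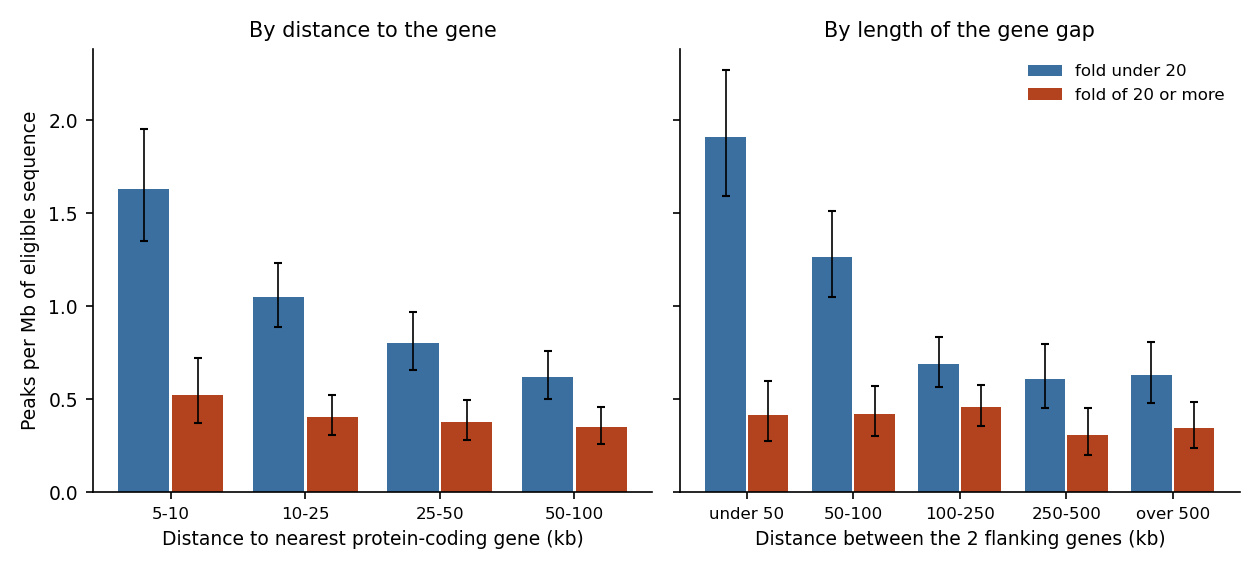
Peaks per Mb of eligible sequence by distance to the nearest protein-coding gene in kb (left) and by the distance between both flanking genes in kb (right), for peaks with a fold under 20 (blue) and of 20 or more (red); error bars are exact 95% Poisson intervals. Blue bars descend from 1.63 to 0.619 with distance, and red bars stay between 0.350 and 0.525.

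The strand of the nearest gene was listed for 532 peaks; 298 of them (56.0%, interval 51.8 to 60.2) lay on the side of the transcription start and 234 beyond the far end, and 53.6% of the eligible sequence with a listed strand lies on the start side. Densities were 1.42 and 1.29 per Mb with overlapping intervals (1.26 to 1.59 and 1.13 to 1.46), and median folds were 9.04 and 9.76. A lncRNA gene was closer than the nearest protein-coding gene for 280 peaks (41.9%), and 60 were within 5 kb of one. Neither count was made over all autosomal peaks. At the edges of the rule, the 3 peaks just inside the lower limit were near MDH2 (5.00 kb, fold 5.94), NDFIP2 (5.04 kb, 19.7) and TUBA1B (5.05 kb, 3.32), and the 3 just outside near ZCCHC8 (4.90 kb, 5.05), CDCA4 (4.85 kb, 70.0) and KPNA3 (4.80 kb, 6.78). The 3 just inside the upper limit were near ETV1 (99.3 kb, 6.47), CXCR4 (98.8 kb, 26.3) and ATG4C (98.8 kb, 54.2), and the 3 just outside near FBXO4 (100.8 kb, 6.85), FOXD4L5 (101.0 kb, 3.12) and CXCL12 (101.1 kb, 15.2).

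By chromosome, density was highest on 19 and lowest on 18. Chromosome 19 held 31 peaks, 3.01 per Mb of eligible sequence (2.04 to 4.27), and chromosome 18 held 6, 0.429 per Mb (0.157 to 0.933). For these 2 chromosomes alone the interval excluded the density over all autosomes, 1.34, out of 22 intervals. The peaks of chromosome 19 were mostly low, with 3 of 31 at a fold of 20 or more and a median of 7.69. On chromosome 22, with 2.17 per Mb (1.21 to 3.57), none of 15 reached 20, the highest being 18.8. Larger shares were high on chromosome 13, with 10 of 18 and a median fold of 24.0, and on chromosome 21, with 4 of 6 and a median of 28.1. Gene density differs between these chromosomes and was not separated from the chromosome itself.

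**Figure D4:**
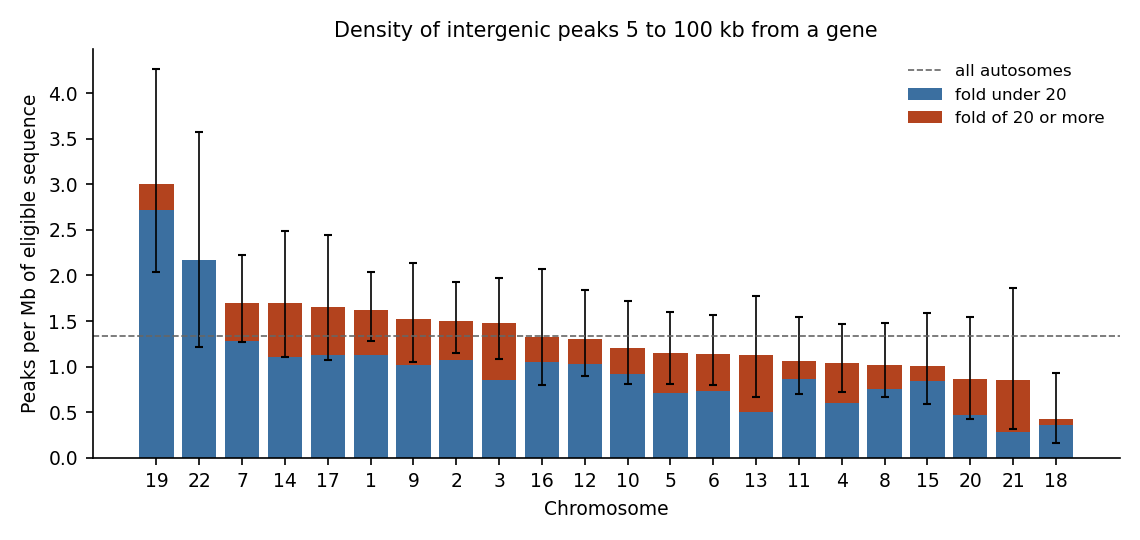
Peaks per Mb of eligible sequence on each autosome, in order of density, with the part at a fold under 20 in blue and the part at 20 or more in red; error bars are exact 95% Poisson intervals of the whole bar and the dashed line is the density over all autosomes, 1.34. Chromosome 19 (3.01) and chromosome 18 (0.429) are the bars whose interval excludes the line.

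Most of these peaks stood alone. Another listed peak lay within 10 kb of 53 (7.93%, interval 6.12 to 10.2), against 6.32% of autosomal peaks outside gene-free stretches and 18.2% of all autosomal peaks. Among the 668, high peaks were the more isolated: 1 of 199 with a fold of 20 or more had such a neighbour, against 52 of 469 lower ones. This split by fold was not counted over the other autosomal peaks. The median distance to the next listed peak was 235 kb. The 668 peaks had 622 different nearest protein-coding genes, of which 589 were nearest to 1 peak, 28 to 2 and 5 to 3 or more.

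Both groups of 3 or more peaks with gaps of at most 10 kb lay on chromosome 2. One had 8 peaks over 32.4 kb at chr2:87396847-87429264, before the start of the gene LOC124907854 (10 peaks had that nearest gene), with folds from 6.09 to 27.4. The widest of the 8 measured 4610 bp, with a fold of 18.3. The other had 4 peaks over 24.0 kb at chr2:91502490-91526457, nearest to the gene LOC124905938, with folds from 5.19 to 15.53, and peaks cover 20.2 kb of it. It includes the widest of the 668 peaks, 8550 bp, and the next, 6777 bp. The others among the 5 widest were that of 4610 bp, 1 of 4166 bp in the same group, and 1 of 5728 bp near TARS3. TARS3 is a threonyl-tRNA synthetase gene, and the fold of that peak was 2.81. The background in both chromosome 2 groups was low, from 1.63 to 4.13 fragments, whereas the peak near TARS3 had 121 fragments over a background of 42.5.

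A set of 3 peaks lay in an array of small nuclear RNA genes on chromosome 17. Before the start of CCDC200 the table lists an array of 14 snRNA genes over 134 kb, the first of which is RNU2-1, encoding the U2 RNA of the spliceosome. The peaks were at chr17:43239221-43241232 (fold 24.8), chr17:43258636-43260987 (7.98) and chr17:43270314-43273217 (21.9). Those with a fold of 24.8 and 21.9 each contained bases of 2 snRNA genes and the one between them of none, so 4 of the 14 genes were touched, and no other listed peak fell in the array. All 3 were wide, 2012 to 2904 bp, with 219 to 295 fragments over backgrounds of 10.2 to 26.6. Reads from near-identical gene copies cannot be assigned to one of them with certainty, and the authors' treatment of such reads is unstated here.

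**Figure D5:**
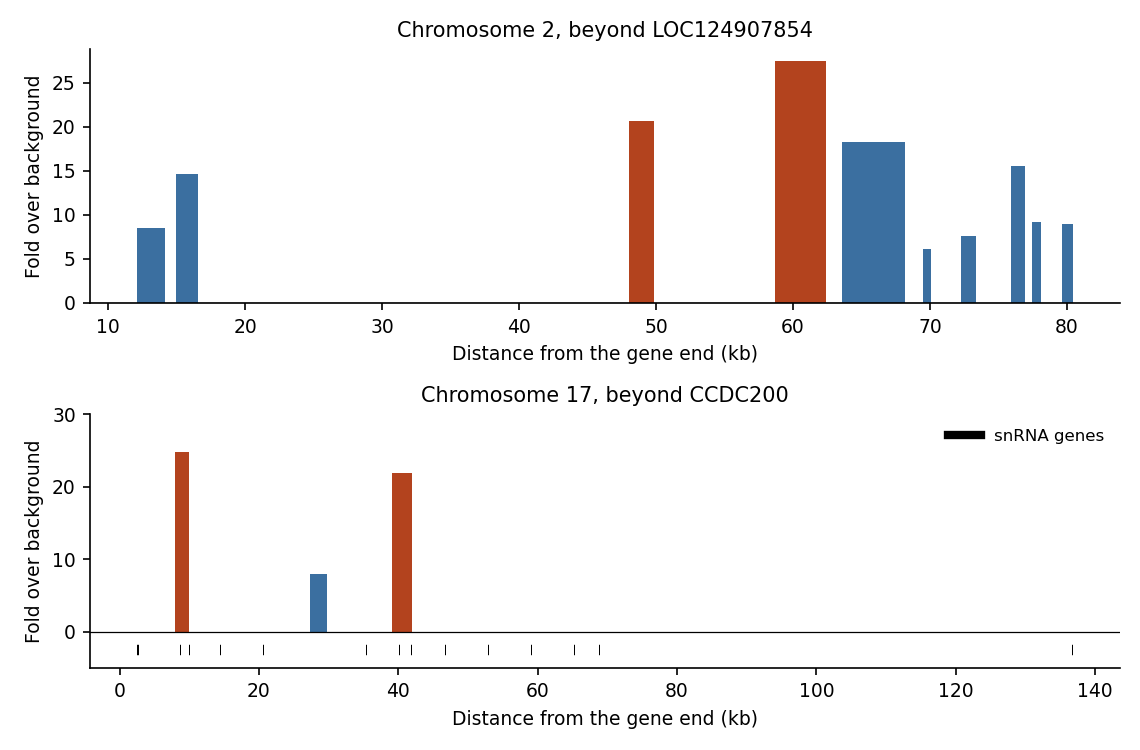
Fold over background of the peaks nearest to LOC124907854 on chromosome 2 (top) and to CCDC200 on chromosome 17 (bottom), against distance from the gene end in kb; each bar has the width of its peak, red bars have a fold of 20 or more and black ticks are the 14 snRNA genes. The top panel shows 8 of the 10 peaks close together with folds from 6.09 to 27.4, and the bottom panel shows 3 peaks, of which 2 stand over snRNA genes.

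The remaining genes with 3 peaks were FSCN1, which bundles actin filaments, and YWHAZ, a 14-3-3 adaptor protein gene. Near FSCN1 the folds were 4.70, 10.7 and 8.37, at widths of 379 to 441 bp and 21 to 27 fragments. Near YWHAZ they were 11.03, 4.32 and 40.9, and the last of these, 86.8 kb from the gene, had the narrow form with 580 bp. The peaks near YWHAZ thus stood on both sides of a fold of 20.

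Genes of other kinds held the midpoint of 23 peaks (3.44%), 21 of them in pseudogenes. The share over all autosomal peaks was not counted. The highest of the 23 peaks, with a fold of 47.8, lay in the antisense RNA gene HTT-AS. Its midpoint was 7.24 kb before HTT, the huntingtin gene. Peaks in the pseudogenes SMG1P7 (44.7, near EXOSC6), AOX3P (44.1, near the aldehyde oxidase gene AOX1), GTF2IP4 (34.7), MRPL48P1 (26.0, near TFAP2A) and KIF19BP (23.5, near the translation factor gene EIF3B) followed. Pseudogenes copy other genes, so reads there may be shared with a near-identical copy.

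The gene lists were compared with all protein-coding genes by how often a gene was the nearest to one of these peaks, which was 622 of 19122 (3.25%). Counting both flanking genes within 100 kb, it was 948 (4.96%). Among developmental transcription factors the share was 7 of 129 (5.43%): FOXD2 (fold 111), FOXP2 (55.6), FOXN3 (37.3) and FOXC1 (28.3) had the highest peaks. That list leaves out FOXO3B, whose symbol also starts with FOX and which was nearest to a peak (fold 5.06 at 21.1 kb). The share thus does not cover every gene whose symbol starts with FOX. Of 505 zinc finger genes 13 were nearest (2.57%), and their peaks had a median fold of 7.28, with ZNF573 (109), ZNF658 (28.8), ZNF280D (24.4) and ZNF532 (17.5) at the top. Of 391 olfactory receptor genes 8 were nearest (2.05%), among them OR11H2, OR5P2 (18.3), OR7E24 (16.7) and OR5AN1 (7.996). Cell adhesion genes with symbols starting CDH or CNTN gave 3 of 41, CDH17 (44.5), CDH10 (33.6) and CNTNAP2 (11.8). No set test was made, and a gene with a large intergenic neighbourhood has more room for a peak.

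Lists tied to the known biology of KCNQ1OT1 are short, and their shares rest on at most 2 genes each. Of 14 genes of 11p15.5 TSPAN32 alone was nearest (7.14%), with a fold of 7.77 at 8.18 kb. Of 33 imprinted genes elsewhere 2 were nearest (6.06%), GRB10, a growth factor receptor adaptor (5.68 at 84.6 kb), and TRAPPC9 (8.402 at 13.5 kb). No gene of 24 that encode heterochromatin or DNA methylation proteins was nearest to a peak. Of 25 genes for senescence, secreted factors and DNA sensing 1 was (4.0%), IL1B, with the peak whose sequence is printed above. Potassium channel genes gave 2 of 94, KCNK1 (13.3) and KCNH8 (11.2), protocadherins 1 of 63, PCDH9 (48.3), and ribosomal protein genes 2 of 77, RPL38 (12.2) and RPL3 (6.12). HOX genes (40), 80 histone genes with symbols starting H1-, H2A, H2B, H3C or H4C, and 15 marker genes of other cell types gave none. That histone list leaves out H3-3A and H3-7, which were each nearest to a peak (fold 6.01 at 7.94 kb and 5.66 at 58.6 kb).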

How the data were processed

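The authors deposited 1 merged peak list without a header, in the 10-column layout of MACS2. Per the submitters' processing notes, the tools were Bowtie2 and MACS2 and the build was GRCh38. Versions, settings and the way the odd, even and input libraries were combined are unstated here. Each peak has a deposited fold (a linear ratio), −log10 p value, a deposited score (the whole part of 10 times −log10 p in all 4889 peaks) and a summit position. Library totals are unknown.

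Positions were compared with the RefSeq GRCh38.p14 gene table, with strands from the promoter table (15100 of 19122 autosomal protein-coding genes). Eligible sequence was measured on a 10 bp grid. Pileup and background were solved from the fold and −log10 p; 100% of 500 simulated pileups were recovered. Medians have order-statistic intervals, shares Wilson intervals and counts exact Poisson intervals. The width limits, the solved pileups, the densities per Mb and the stretch of snRNA genes were chosen after the values had been seen. The ribosomal list was narrowed to exclude a kinase gene after its hit was seen. Python 3.11.15, numpy 2.4.6, pandas 2.3.3 and scipy 1.17.1 were used.

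Members, lists and naming rules were chosen with earlier results of these data known. Named were the 10 highest peaks by fold and by −log10 p, genes nearest to 3 or more peaks, the 5 widest peaks, the 3 nearest and 3 farthest, groups of 3 or more, up to 4 genes per list and up to 6 peaks in genes of other biotypes, plus those at the limits of the rule. Of the peaks inside promoter windows, both were named after their values were seen.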

Additional observations from a re-analysis of the deposited data

Results flagged for a closer look

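Peaks of the X chromosome were left out by the rule. There, 51 of 269 listed peaks met the same conditions of position, and they enter none of the comparisons given here. Their median fold was 11.04, and 16 of the 51 (31.4%) had a fold of 20 or more, beside 29.8% of the 668 autosomal peaks that met them. The count alone does not set the X chromosome apart from the autosomes.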

How the results depend on the processing

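No paired analysis was possible because the list merges the libraries and the labels carry no replicate numbers. With a −log10 p of at least 20, 436 peaks were left, with a median fold of 17.9, width of 613.5 bp, −log10 p of 71.6 and distance of 25.5 kb; 45.6% had a fold of 20 or more, 2.98% had a neighbour within 10 kb, and the density ratio of 5 to 10 kb over 50 to 100 kb was 1.75. With a fold of at least 5, the median fold was 11.2, −log10 p 39.3, the share at 20 or more 34.0% and the share with a neighbour 4.96%. Both settings remove low peaks by construction. The median distance was 30.3 kb with a lower limit of 10 kb and 15.8 kb with an upper limit of 50 kb, also by construction. Neighbours were found for 4.79% within 5 kb, 18.6% within 50 kb and 3.77% with 1 peak per group; genes of the lists numbered 63 with both flanking genes against 40. The density ratio was 1.501 for peaks with a fold of 20 or more. Its alternatives, 1 peak per group and the omission of groups or of LOC genes were added after the data were seen. Alternatives for GC content and purine runs were not run, since no genome sequence was used.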
